A study of Mus musculus with 34 samples.

Results

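The homeobox genes Six2 to Six6 and the Eya genes Eya1, Eya2 and Eya4 were followed across mouse arrays of DNA methylation at CpG islands. Members were the probes whose gene name in the scanner files is Six2, Six3, Six4, Six5, Six6, Eya1, Eya2 or Eya4, joined into islands wherever neighbouring probes were no more than 500 bases apart, with 3 probes as the minimum. Of the 13614 islands scored on every array, 14 belong to 7 of these 8 genes. No probe of the files used here carries the name Eya2. A pair of further probe runs, one inside Eya4 and one upstream of Six5, hold under 3 probes and were not scored.

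Six2 to Six6 encode homeodomain transcription factors, and Eya proteins are their partners, phosphatases that act as co-activators once brought to DNA by them. Together with Pax and Dach genes they form a network that patterns the eye, ear, kidney, muscle and forebrain. Six2 keeps nephron progenitors of the kidney from differentiating, and Six3 and Six6 act in the forebrain and the eye. Islands at genes of this kind are mostly free of methylation in normal tissues.

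Methylated DNA was precipitated with an antibody against methylated cytidine, and the bound DNA (Cy5) and input DNA (Cy3) were hybridised together to an Agilent CpG island array, 1 array per sample. Each island has an island methylation score (IMS), obtained by averaging the Z-scores of its probes, so that 0 is the average probe of that array and higher values mean more bound over input DNA. The 34 arrays comprise 16 of adult tissue from 3-month-old mice (colon, pancreas, brain, kidney, liver, lung, muscle and spleen, 2 arrays each, of either sex), 5 of embryos, 1 for each day from 8.5 to 12.5 dpc, 3 of undifferentiated ES cells (lines EB5, J1 and TT2), 5 of differentiated ES cells, 2 of teratoma, and single arrays of Min6 (a β cell line), aTC (an α cell line) and β cells taken ex vivo. The methods give C57Bl/6 for all mouse DNA, whereas the ES cells and the cell lines are established lines. The ex vivo β cells came, by the study's supplement, from islets of transgenic mice of several months of age that carry a Pdx1-GFP construct, and were sorted with antibodies against insulin. The differentiated cells were endoderm (2 arrays) and mesoderm, both sorted from an EB5 reporter line after treatment with Activin A, embryoid bodies from TT2, and retinoic acid treated cells, which the label and a figure legend of the study assign to TT2 and its methods to J1. Teratomas grew under the skin of NOD-SCID mice, from J1 by the label and from other ES cells by the methods. Apart from the 2 endoderm arrays, which are labelled as replicates, the 5 differentiated arrays are thus different preparations rather than repeats of one. The fits took all 5 as independent. The limma p-values rest on the spread between arrays within groups, pooled over all groups of a fit, of which adult tissue has 16 arrays.

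Several arrays went against their labels, and they are given here as labelled. Over all islands, centred within each replicate number, each of 6 adult arrays scanned on 1 day (the replicates 1 of brain, liver, kidney, spleen, lung and muscle) correlated most with the replicate 2 of the other tissue on its own slide. These correlations were 0.268 to 0.573, against -0.253 to -0.018 with the replicate 2 of their own label. The array labelled lung 1 had r = 0.417 with muscle 2, and muscle 1 had r = 0.507 with lung 2. The array labelled J1, scanned on the same day, correlated most with pancreas 2 (r = 0.679) and negatively with EB5 (r = -0.188) and TT2 (r = -0.201), and its values in the deposited table correlated with its scanner file with r = 0.113 across probes. How this came about was not tested. Comparisons that take adult tissue as 1 group do not depend on the tissue names, but every comparison between tissues does, and the Six2 upstream and Six6 start differences given for undifferentiated ES cells are also given without J1.

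Of the 14 islands, 5 belong to Six3, 3 to Six2, 2 to Six6 and 1 each to Six4, Six5, Eya1 and Eya4. Positions are those of the 6 arrays whose files name mm9, and distances from the gene start are those of the array annotation. The Six2 upstream island (chr17:86091188-86092308, 9 probes) lies at -4697 to -3626 from the start of Six2, the Six2 start island (chr17:86086261-86088804, 16 probes) covers the start from -1194 to 1297, and the Six2 inside island (chr17:86084275-86084925, 6 probes) lies 2684 to 3288 bases into the gene. The Six6 start island (chr12:74040578-74041517, 9 probes) reaches from -330 to 564, and the Six6 downstream island (chr12:74046225-74047108, 7 probes) lies behind the gene. Six3 has 3 islands upstream, the farthest beginning at -8269, and 2 inside the gene, at 652 to 1281 (chr17:86020803-86021477, 7 probes) and 2682 to 2891 (chr17:86022833-86023086, 3 probes).

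Promoter windows from RefSeq (GRCm38.p6, 250 bases before to 50 after the start, on the strand of the gene) were found for 6 of the member genes. They are shown for Six2 and Six6, whose islands differed between groups, and for Eya4, whose start island was high in the pancreatic lines. Capitals mark each CG dinucleotide, the site that carries the methylation.
Six2: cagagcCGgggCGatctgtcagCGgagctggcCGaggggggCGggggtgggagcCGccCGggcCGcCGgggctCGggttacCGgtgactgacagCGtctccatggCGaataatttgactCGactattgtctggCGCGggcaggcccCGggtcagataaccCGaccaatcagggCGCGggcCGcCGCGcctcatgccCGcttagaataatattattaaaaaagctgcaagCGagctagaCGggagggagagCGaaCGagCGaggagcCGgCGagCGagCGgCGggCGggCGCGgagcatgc
Six6: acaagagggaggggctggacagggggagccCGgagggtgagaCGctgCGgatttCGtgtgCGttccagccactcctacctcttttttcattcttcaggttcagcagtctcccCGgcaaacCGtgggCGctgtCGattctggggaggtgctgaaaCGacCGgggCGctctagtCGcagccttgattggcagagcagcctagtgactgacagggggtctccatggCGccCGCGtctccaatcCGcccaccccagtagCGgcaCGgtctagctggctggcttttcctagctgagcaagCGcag
Eya4: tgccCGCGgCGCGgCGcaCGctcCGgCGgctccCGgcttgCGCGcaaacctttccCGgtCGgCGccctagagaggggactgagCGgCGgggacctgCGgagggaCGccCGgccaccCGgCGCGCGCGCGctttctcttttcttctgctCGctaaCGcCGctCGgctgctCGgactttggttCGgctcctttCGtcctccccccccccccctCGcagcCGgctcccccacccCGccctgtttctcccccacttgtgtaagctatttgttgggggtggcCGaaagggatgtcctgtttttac

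The Six2 window (chr17:85688205-85688504, minus strand) holds 37 CG, more than 94.4% of the 32851 windows of that length in the table. The Six6 window (chr12:72939632-72939931, plus strand) holds 20 CG, more than 73.5% of them. The Eya4 window shown (chr10:23349894-23350193, minus strand), 1 of 2 for this gene, holds 36 CG, more than 93.8%. The Six3 window holds 14 CG and the Six5 window 17, against a median of 7 over all windows. By the distances above, the Six2 upstream island lies outside the Six2 window.

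**Figure D1:**
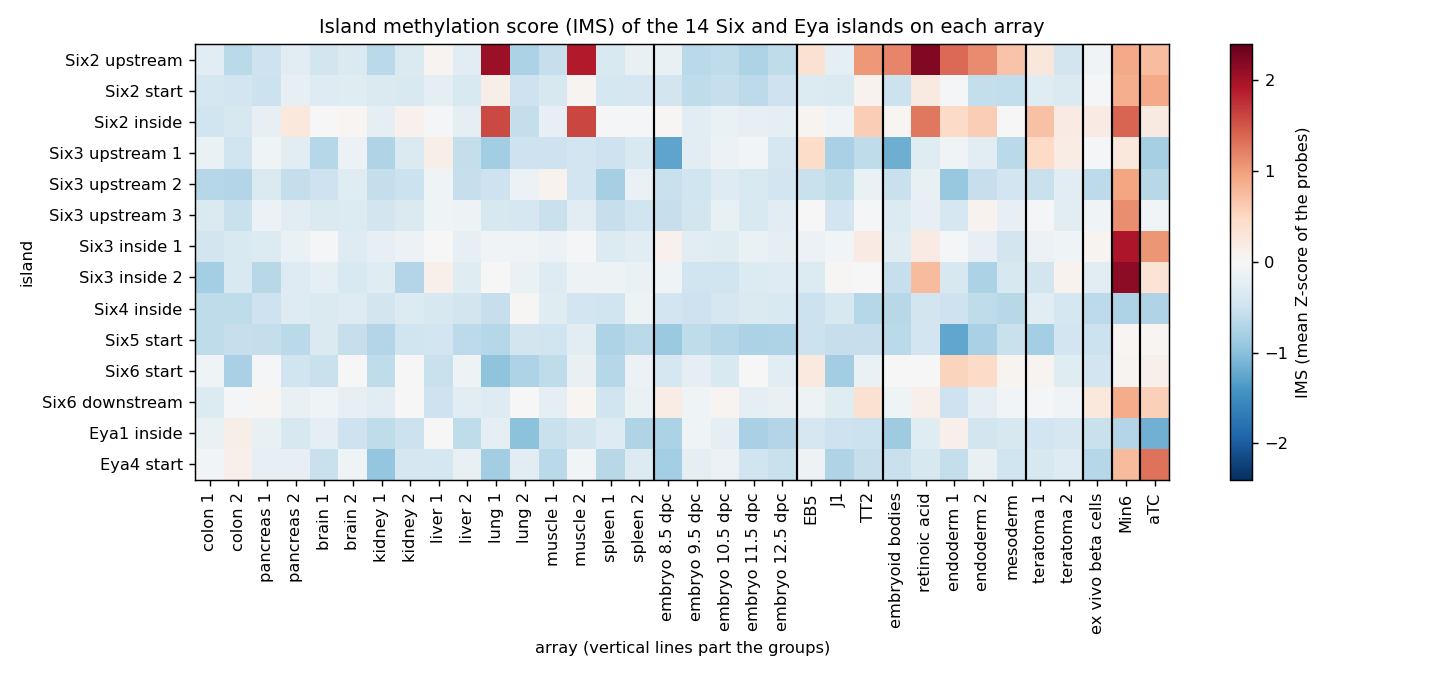
IMS of each of the 14 islands (rows) on each of the 34 arrays (columns), with red above 0, blue below 0 and vertical lines between groups. Most cells are blue. Red cells above 0.75 include Six2 upstream and Six2 inside on the arrays labelled lung 1 and muscle 2, Six2 upstream on 4 of 5 differentiated ES arrays, 9 islands on Min6 and 3 on aTC.

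In adult tissue the mean IMS of most of these islands was below 0. How many of all islands share this was not counted. On all 16 adult arrays 3 of 14 islands were below 0 (Six3 upstream 3, Six3 inside 1 and Six5 start), against 29.8% of all islands. The lowest mean was that of Six5 start (chr7:19679372-19680898, 11 probes), at -0.55 ± 0.13 (SD, n = 16). Six5 is a homeobox gene beside Dmpk, the myotonic dystrophy kinase gene. Six4 inside (chr12:74212709-74214145, 14 probes) had -0.39 ± 0.17, and Eya1 inside (chr1:14299762-14300178, 5 probes) had -0.39 ± 0.28. Arrays held either 97651 or 88737 probes, and the smaller set lacks a probe of Eya1 inside. Its mean Z-score was 0.46 on the adult arrays that hold it, while the other probes there were below 0. Six2 inside, Six3 upstream 3, Six4 inside, Six5 start and Six6 downstream also lack a probe on the smaller set. How far this moved the scores was not tested. Six4 and Eya1 act in muscle and kidney precursors. The only island with a mean above 0 in adult tissue was Six2 inside, at 0.07 ± 0.63, where 2 arrays stood far above the others.

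The question of the study was whether islands unmethylated in normal tissue become methylated in ES cells differentiated in vitro. Among the 14 islands the Six2 upstream island had the largest difference, although it was high on 2 of the adult arrays. Its IMS was 1.17 in embryoid bodies, 2.23 in retinoic acid treated cells, 1.36 and 1.14 in endoderm and 0.69 in mesoderm. Adult tissue ranged from -0.77 to 2.05 with a median of -0.35, and 13 of 16 arrays were below 0. All 5 differentiated arrays thus lay above 14 of the 16 adult arrays, and the groups overlapped only through the arrays labelled lung 1 and muscle 2. The difference was 1.41 (SE 0.34, limma adjusted p = 0.00297), and on the scale of the centred log2 ratio of bound over input it was 1.55 (SE 0.48, adjusted p = 0.0271).

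The Six6 start island was higher too, with smaller values. It scored -0.01 in embryoid bodies, -0.01 in retinoic acid treated cells, 0.54 and 0.47 in endoderm and 0.07 in mesoderm. Adult tissue ranged from -0.97 to 0.00 with a median of -0.51. Both groups met at about 0, where embryoid bodies, retinoic acid treated cells and the highest adult arrays lay. The difference was 0.62 (SE 0.16, limma adjusted p = 0.00412). None of the 5 arrays exceeded an IMS of 0.75. The study calls an island methylated above that level, but on Z-scores set by the melting temperature (Tm) of the probe, which the scores here are not.

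Thus 2 of 14 islands were called between differentiated ES cells and adult tissue, both higher, against 23.2% of all islands called, 14.4% higher and 8.73% lower. None of the 14 had all 5 differentiated arrays above all 16 adult arrays, against 2.51% of all islands. The median difference of the 14 islands was 0.03, against -0.01 over all islands. The other 12 had differences from -0.19 (Six4 inside) to 0.40 (Six2 inside). Only 104 of all islands had a larger difference than Six2 upstream. Of the 14, 3 exceeded 0.75 on at least 1 differentiated array, against 22% of all islands: Six2 upstream on 4, and Six2 inside (1.26) and Six3 inside 2 (0.76) on the retinoic acid array alone. None of these 3 was below 0 on all 16 adult arrays, and the study counted only islands below 0 in all its tissue samples.

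Both calls were lost with the slide or the scan day as a fixed block. Within slides that hold both groups, Six2 upstream was higher by 1.64 in endoderm 2 than in pancreas 1 and by 1.53 in embryoid bodies than in brain 2. At the Six6 start island the same differences were 0.49 and -0.01. With the slide as a fixed block the difference was 1.58 (adjusted p = 0.1) at Six2 upstream and 0.24 (adjusted p = 0.33) at Six6 start, and with the scan day 1.53 (adjusted p = 0.0609) and 0.22 (adjusted p = 0.539). With the software version as the block both stayed called, at 1.13 (adjusted p = 0.044) and 0.55 (adjusted p = 0.0395). The 6 adult arrays of the shared scan day had a mean of -0.65 ± 0.16 at Six6 start, against -0.26 ± 0.30 for the other 10, and J1, of the same day, had -0.83. With normexp background correction the difference was 0.86 (adjusted p = 0.101) at Six2 upstream and 0.28 (adjusted p = 0.0299) at Six6 start. Without those 6 arrays the Six6 start difference was 0.47 (SE 0.16, adjusted p = 0.0421).

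**Figure D2:**
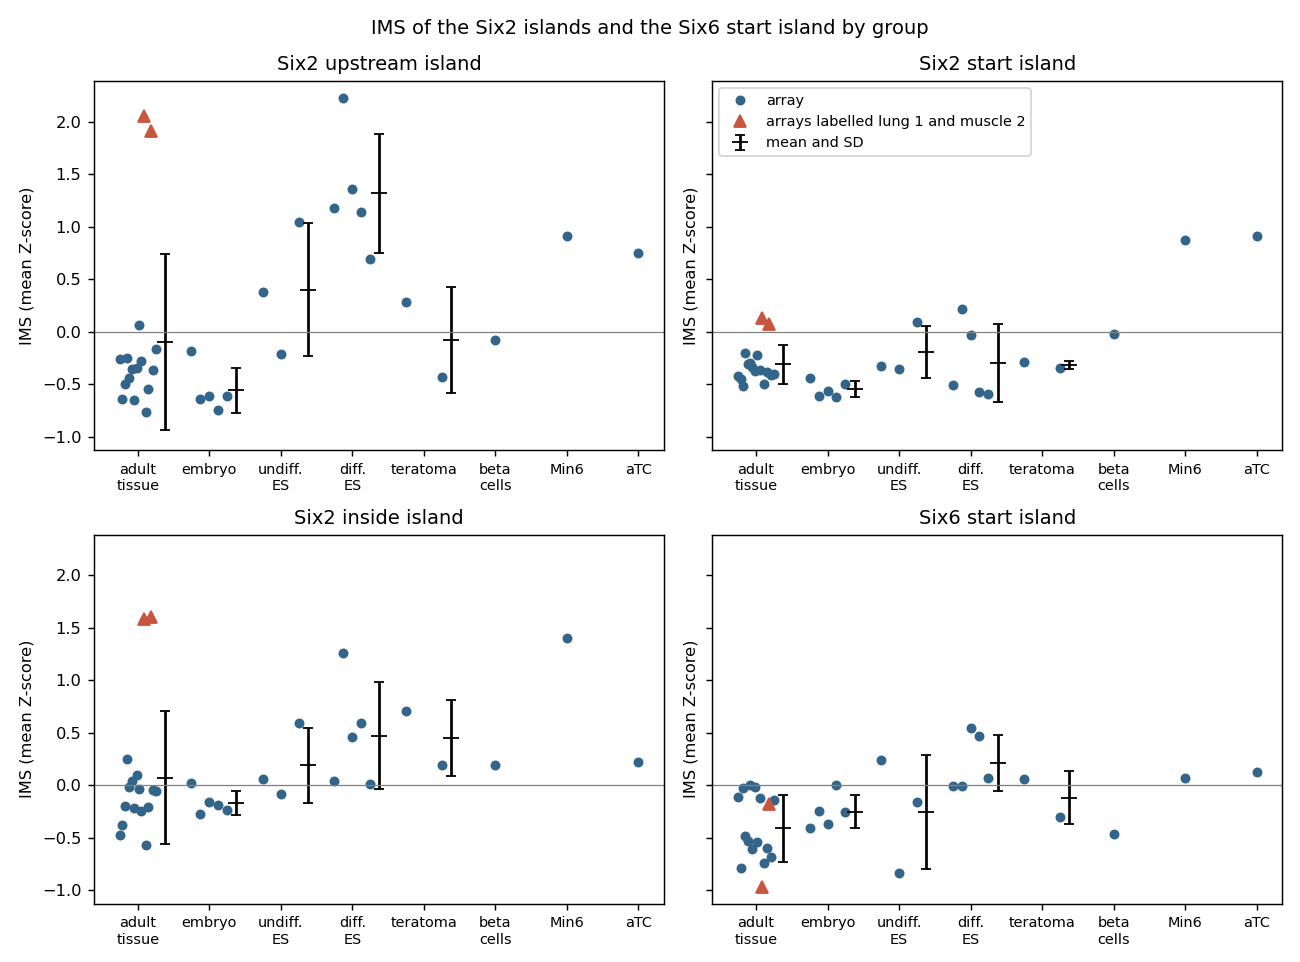
IMS of the 3 Six2 islands and the Six6 start island by group, 1 point per array, with the mean and SD beside each group of over 1 array. The triangles are the arrays labelled lung 1 and muscle 2, which lie near 2 at the Six2 upstream island and near 1.6 at the Six2 inside island, whereas the highest of the other adult arrays are at 0.06 and 0.25.

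The high Six2 score was not particular to 1 probe. All 9 probes of the Six2 upstream island had a higher mean Z-score in differentiated ES cells than in adult tissue, by 1.01 to 1.95, with the largest difference at the probe at position -4387. The island over the start of the same gene was different. Six2 start scored -0.51, 0.21, -0.03, -0.57 and -0.60 in embryoid bodies, retinoic acid treated cells, endoderm (2 arrays) and mesoderm, and its difference from adult tissue was 0.01 (SE 0.11, adjusted p = 0.949). Six2 inside lay between them, with 0.04, 1.26, 0.46, 0.59 and 0.02 and a difference of 0.40 (SE 0.26, adjusted p = 0.283). Across the 34 arrays the score of Six2 upstream correlated with Six2 inside with r = 0.850, a description over arrays that share groups and lines.

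**Figure D3:**
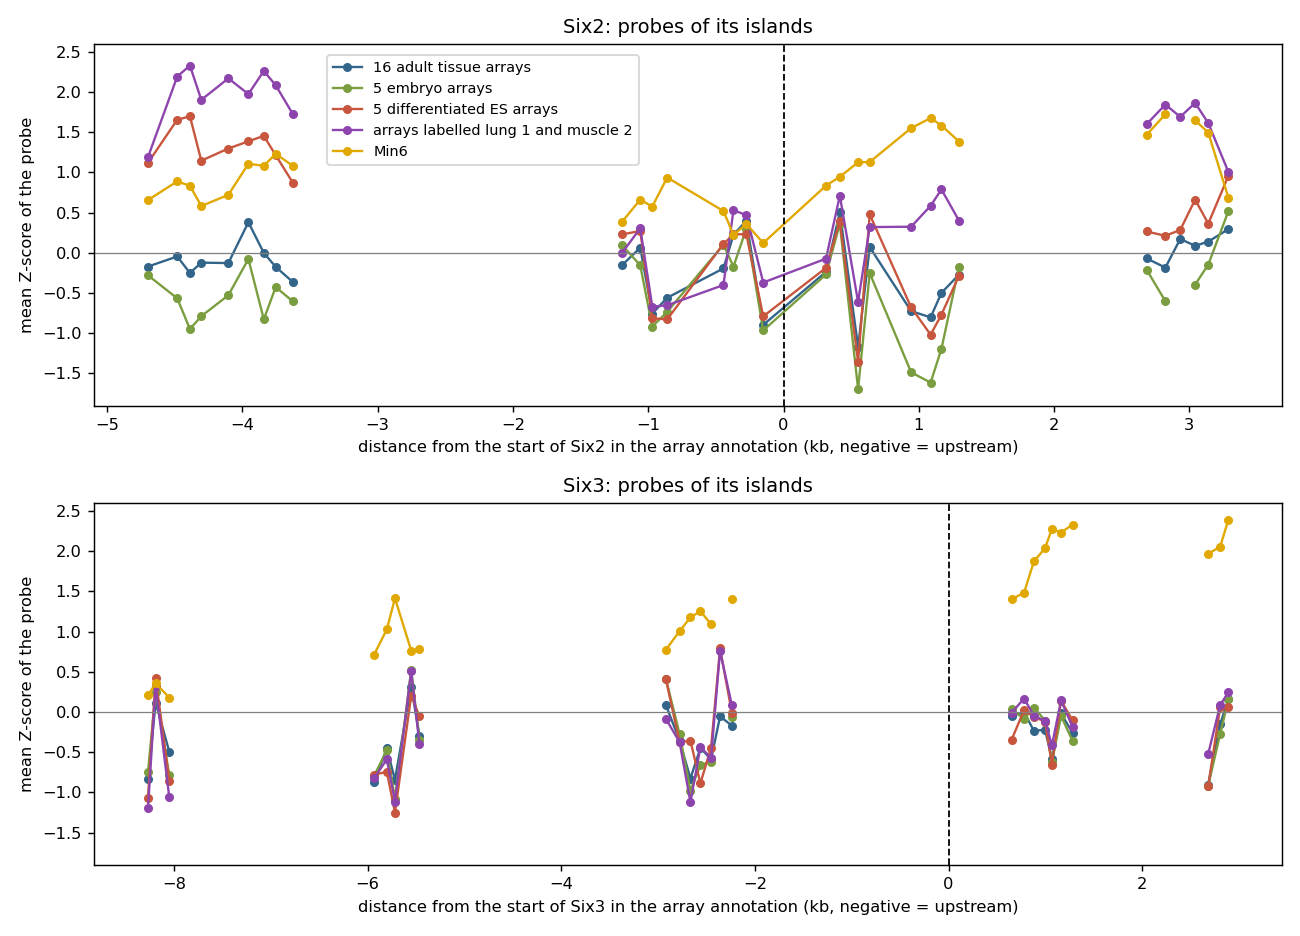
Mean Z-score of each probe against its distance from the gene start in kb, for Six2 (top) and Six3 (bottom), in 16 adult arrays, 5 embryos, 5 differentiated ES arrays, the 2 arrays labelled lung 1 and muscle 2, and Min6. At the Six2 upstream island the differentiated cells and both labelled tissue arrays lie above the means of all adult arrays and of embryos. At Six3 the Min6 values lie highest inside the gene.

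The undifferentiated lines give the level before differentiation. Six2 upstream scored 0.37 in EB5, -0.22 in J1 and 1.04 in TT2. The line TT2 was close to its embryoid bodies (1.17), while the retinoic acid array was 1.18 above it. From EB5, endoderm was higher by 0.98 and 0.77 and mesoderm by 0.32. The difference from adult tissue was 0.50 (SE 0.42, limma adjusted p = 0.589), and without J1 it was 0.80 (SE 0.50, adjusted p = 0.354). No member island was called by limma, against 2.3% of all islands (0.984% higher, 1.31% lower), and none had an unadjusted p under 0.05. The methods' t-test called none after adjustment and 1 at an unadjusted p under 0.05. Between differentiated and undifferentiated ES cells, limma called none of the 14, against 5.43% of all islands (3.51% higher, 1.92% lower). At an unadjusted p under 0.05 limma had 1 member, Six6 start (0.46, SE 0.22, adjusted p = 0.228), and the methods' t-test had none. Without J1 (-0.83) the Six6 start difference was 0.17 (SE 0.23, adjusted p = 0.753), and with the slide as a fixed block it was -0.49 (adjusted p = 0.386). The difference at Six2 upstream was 0.92 (SE 0.49, adjusted p = 0.288), and without J1 it was 0.61 (SE 0.56, adjusted p = 0.609).

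Embryos were a further in vivo reference, beside adult tissue. All 5 were below 0 at Six2 upstream. The earliest embryo had -0.19, and those of the following days had -0.64, -0.61, -0.75 and -0.61. Differentiated ES cells lay above every embryo there, by a difference of means of 1.88 (SE 0.42, limma adjusted p = 0.00206). It was the only member island called in this comparison, against 21.1% of all islands (11.8% higher, 9.29% lower). Six2 upstream was also the only one of the 14 with all 5 differentiated arrays above all 5 embryos, against 8.67% of all islands. Embryos and differentiated cells shared no slide, and with the slide as a fixed block the difference was 2.19 (adjusted p = 0.51), with the scan day 2.68 (adjusted p = 0.241) and with the software version 2.32 (adjusted p = 0.208). With normexp background correction it was 1.11 (adjusted p = 0.142). At Six6 start the difference was 0.47 (SE 0.19, adjusted p = 0.0837). Against adult tissue, embryos had none of the 14 called by limma, against 8.64% of all islands (5.17% higher, 3.47% lower), and 2 at an unadjusted p under 0.05. The methods' t-test likewise called none after adjustment and 2 before. With limma these were Six2 start, at -0.24 (adjusted p = 0.211), and Six5 start, at -0.18 (adjusted p = 0.221).

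Teratomas are tumours in which ES cells differentiate within an animal. Six2 upstream scored 0.28 and -0.44 there, a difference from adult tissue of 0.02 (SE 0.50, adjusted p = 0.995). That adult mean includes the high arrays labelled lung 1 and muscle 2. Without them adult tissue had -0.39 ± 0.22 (SD, n = 14), from -0.77 to 0.06, so that 1 teratoma lay above that range and 1 within it. The largest difference was at Six3 upstream 1 (chr17:86011875-86012152, 3 probes), with 0.48 and 0.18, against -0.83 to 0.14 on adult arrays. Its difference of 0.73 (SE 0.27) gave an adjusted p of 0.452. No member was called by limma, against 0.191% of all islands (0.176% higher, 0.0147% lower), with 1 at an unadjusted p under 0.05. The methods' t-test called none after adjustment and 1 before it.

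Among adult tissues the Six2 upstream and Six2 inside islands varied most, with an SD of 0.84 and 0.63 over the 16 arrays, while Six2 start had 0.18. At Six2 upstream the array labelled lung 1 had 2.05 and muscle 2 had 1.91, while lung 2 had -0.77 and muscle 1 had -0.55. At Six2 inside the same arrays had 1.59 and 1.61, against -0.57 and -0.20. The other 12 adult arrays lay between -0.65 and 0.06 at Six2 upstream. The array labelled lung 1 correlated most with muscle 2 over all islands, as given above. The F test over the 8 tissues called none of the 14, against 0.0808% of all islands, with none at an unadjusted p under 0.05. The contrasts of brain, muscle and kidney against the other tissues called none either, against 0% of all islands, with none of the 14 at an unadjusted p under 0.05.

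Without the 6 arrays that went against their labels, 10 adult arrays remained and the F test called 1335 islands (9.81%) in place of 11. Among them were 2 of the 14, Six2 upstream and Six2 inside. For muscle, then muscle 2 alone, 2 of the 14 were called, against 0.632% of all islands. It was higher than the other tissues by 2.30 (SE 0.20, limma adjusted p = 0.000686) at Six2 upstream and by 1.77 (SE 0.20, adjusted p = 0.00188) at Six2 inside. In that fit the spread came from the pairs of colon and pancreas, and single arrays were taken to vary like them. For brain and kidney none of the 14 was called, against 3.17% and 0.353% of all islands in that fit. The difference of brain at Six6 start was 0.28 (SE 0.25, adjusted p = 0.791), and that of kidney at Six2 upstream was -0.27 (SE 0.20, adjusted p = 1). No adult tissue with both arrays high at a member island was found under the labels as given.

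The pancreatic lines Min6 and aTC gave the highest scores outside Six2. Ex vivo β cells, Min6 and aTC had 1 array each, so no test was made, and all were read on 1 scan day with the same software. Min6 and aTC shared a slide, and the β cells were on another. No adult array had that scan day or software version. Differences of the lines from β cells thus cannot be told apart from slide effects. Differences from adult tissue cannot be told apart from scan day or software. On Min6, 9 of 14 islands exceeded 0.75, against 19.5% of all islands, and 10 of 14 lay above all 16 adult arrays, against 16.2%. The 9 comprised all Six2 islands, all Six3 islands but Six3 upstream 1, Eya4 start and Six6 downstream. Six2 and Six3 are neighbours on chromosome 17, so their islands are not independent units. On ex vivo β cells none of the 14 exceeded 0.75, against 12.7%, and 3 of 14 lay above all adult arrays, against 11.6%. The median of the 14 was 0.89 on Min6 and -0.17 on ex vivo β cells, against -0.31 and -0.14 over all islands.

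Six3 held the highest scores on Min6. Six3 inside 2 scored 2.14 on Min6, 0.33 on aTC and -0.26 on ex vivo β cells. Six3 inside 1 scored 1.95, 1.06 and 0.07 in the same order, and Six3 upstream 3 scored 1.12, -0.06 and -0.08. All 5 Six3 islands were higher on Min6 than on aTC, by 0.89 to 1.81. Six2 start, low on every array of the other groups, scored 0.88 on Min6 and 0.91 on aTC, against -0.03 on ex vivo β cells and at most 0.21 on the others.

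The line aTC showed fewer high islands, 3 of 14 above 0.75 against 23.1% of all islands, and 8 of 14 above all adult arrays against 19.9%. Its highest was Eya4 start (chr10:23069438-23070519, 9 probes), with 1.31, against 0.76 on Min6, -0.68 on ex vivo β cells and -0.93 to 0.11 on adult arrays. Eya4 acts in hearing and in the heart. Eya4 start, Six2 start and Six3 inside 1 exceeded 0.75 on both lines, 3 of 14 against 16.3% of all islands. Six4 inside (-0.74 on Min6, -0.71 on aTC) and Eya1 inside (-0.70 and -1.15) were low on both lines. Six5 start was near 0 on both (0.05 and 0.06), above its adult range of -0.75 to -0.28.

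**Figure D4:**
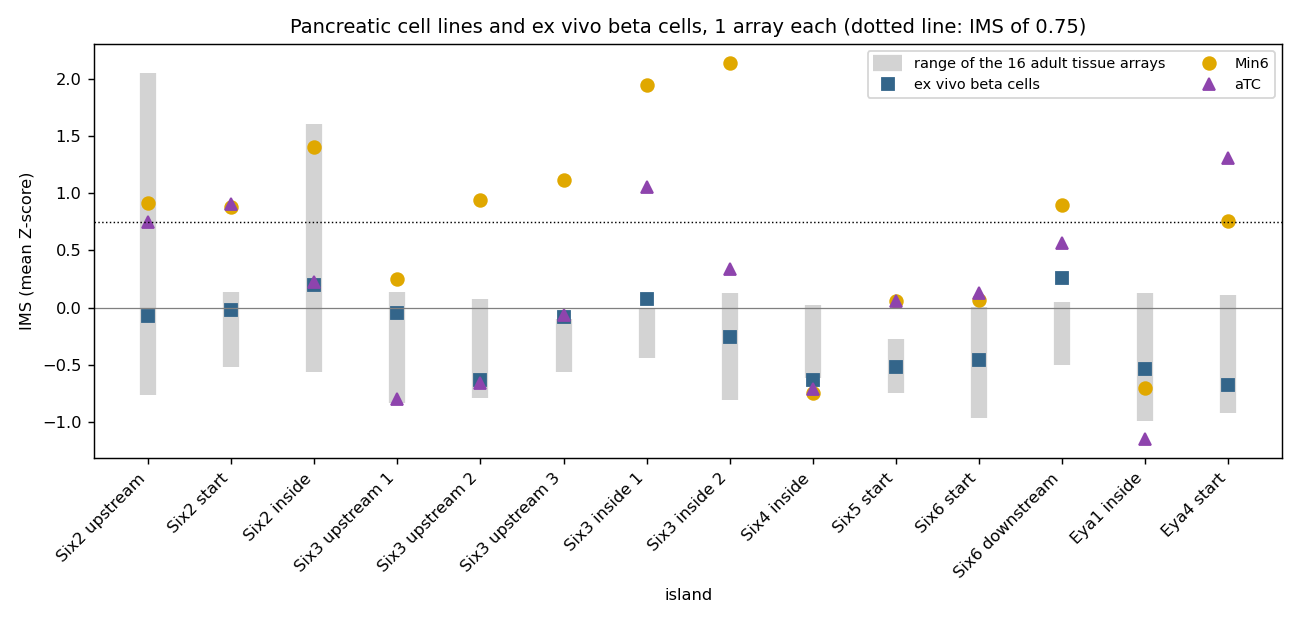
IMS of each island on ex vivo β cells (squares), Min6 (circles) and aTC (triangles), 1 array each, over the range of the 16 adult arrays (grey bars). On Min6, 9 islands lie above the dotted line at 0.75, 4 of them at Six3, whereas no square does.

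Across the 34 arrays the 91 pairs of member islands correlated with r from -0.451 to 0.875 (median 0.274), and 29 pairs exceeded 0.5. The highest was between both islands inside Six3, followed by Six2 start with Six3 inside 1 (r = 0.863). These genes are neighbours on chromosome 17, and Min6 is among the 2 highest arrays at all of the islands just named. For each gene, the island with the most probes was also compared with the islands of other genes. Six2 start was most like islands of Dlx2 (r = 0.904) and Barx1 (r = 0.898), both homeobox genes. Eya4 start was most like an island of Tbx3, a T-box factor gene (r = 0.877). Six3 upstream 3 was most like Rassf2 (r = 0.857) and Dmbx1 (r = 0.852), Six6 start like the island of Pfdn4 and Cyp24a1 (r = 0.850) and Atf3 (r = 0.834), and Six5 start like Sall1 (r = 0.794) and Prr7 (r = 0.791). Six4 inside was most like Lman2l (r = 0.828) and Dcun1d4 (r = 0.815). Eya1 inside was most like the island of Phtf2 and Tmem60 (r = 0.776). All are descriptions over arrays that include both pancreatic lines.

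The other genes of the network were 27 Pax, Dach, Groucho, kidney, muscle and eye genes, of which 23 have a scored island and 54 islands in all. Between differentiated ES cells and adult tissue 13 of the 54 were called (24.1%, against 23.2% of all islands), 8 higher and 5 lower. Wt1, a zinc finger gene of the kidney and gonad, had an island that rose by 1.42 (SE 0.23, adjusted p = 2.44e-05), from -0.26 ± 0.54 (SD, n = 16) to 1.16 ± 0.30 (SD, n = 5). An island of Pax6, which directs eye development with Six3, rose by 1.25 (SE 0.32, adjusted p = 0.00506), from -0.48 ± 0.57 to 0.77 ± 0.82. Against embryos 8 of the 54 were called in differentiated cells (14.8%, against 21.1% of all islands), all higher (against 11.8%). Against undifferentiated cells 4 were called (7.41%, against 5.43%), 3 higher and 1 lower. Against adult tissue, 3 of the 54 were called in undifferentiated ES cells (5.56%, against 2.3%), 1 higher and 2 lower. In embryos 4 were called (7.41%, against 8.64%), all lower (against 3.47%), and in teratomas none, against 0.191%.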

How the data were processed

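Each scanner file holds, as deposited, the signal intensity of both dyes per spot and the log10 ratio of bound (Cy5) over input (Cy3), made by Agilent's software after background removal and a linear dye correction. Spot flags in these scanner files are other values, coded as 0 or 1. The processed table deposited by the authors holds 1 score per probe, a Z-score that the methods set by probe Tm. Control spots and outlier spots were left out here, the log10 ratios were turned into Z-scores over each array, and IMS was averaged over at least 3 probes. Groups were fitted together over all 13614 islands with limma 3.58.1 (lmFit, eBayes) in R 4.3.3, with Benjamini-Hochberg adjusted p under 0.05 as the call. Teratomas entered a fit with all groups, and tissues a fit of the 16 adult arrays. Python 3.11.15, numpy 2.4.6 and pandas 2.3.3 were used otherwise.

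On simulated data with independent noise and 200 islands changed by 1, the share recovered was 92.5% between adult tissue and differentiated ES cells. It was 91% between these cells and embryos, 85% between differentiated and undifferentiated cells, 83.5% between teratoma and adult tissue, and 68.5% for brain against the other tissues. Of the calls, 2.15% to 6.18% fell on unchanged islands. The simulation held no slide or scan day effect, so these shares do not cover such effects. They do not cover differences under 1 either, such as the 0.62 of Six6 start between differentiated ES cells and adult tissue. Median input signal was 3.07 to 7.34 times background, and median bound signal was lower, at 1.54 to 5.59 times. The share of probes with input well above background was 62.4% to 99.9% by array. Dim signal on some arrays and the number of arrays limit the precision. The arrays lie on 23 slides, with 16 scan days and 4 software versions, and 28 files name no genome build.

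Members and gene lists were chosen with earlier results of these data known. Full values were given for member islands called in any comparison and for the largest island of the other genes, the genes most alike were the 2 islands with the highest r more than 100000 bases away, of which not all are named, and the 3 network islands with the largest difference were named. Of these 3, 1 island is not reported here. The settings of the processing that were varied are given with their effect in the closing section.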

Additional observations from a re-analysis of the deposited data

Results flagged for a closer look

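Arrays far from the rest of their group were sought in the embryos and the differentiated ES cells, 28 sets of 5 arrays over the 14 islands, by the gap to the nearest array divided by the range of the group (critical value 0.71). Chance gives about 1 in 20 such sets, and 3 were found. At the Six2 upstream island the embryo of 8.5 dpc was highest, at -0.19, with the nearest embryo at -0.61 (ratio 0.754). At the Six3 upstream 1 island, of 3 probes, the same embryo was lowest, at -1.27, with the nearest at -0.41 (ratio 0.712). At the Six3 inside 2 island, also of 3 probes, the retinoic acid array was highest among differentiated ES cells, at 0.76, with the nearest at -0.39 (ratio 0.757). The embryo of 8.5 dpc and the retinoic acid array were read with another software version than the rest of their groups, and its part in these values was not tested.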

How the results depend on the processing

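The count of member islands called between differentiated ES cells and adult tissue (2) was 1 with the deposited table (8 member islands scored, Six2 upstream called) and 1 with normexp on median signals (Six6 start called, Six2 upstream 0.86, adjusted p = 0.101). It was 3 with the median over probes, which added Six4 inside, 2 with probes whose input was well above background, though Six5 start was called there and Six6 start not tested, and 0 with the slide or the scan day as a fixed block. Against embryos the count of 1 was 0 with normexp and with the slide, the scan day or the software version as a block, and 3 with the compared groups alone, which added Six6 start and Six2 inside. The deposited table gave 1 call (Six3 inside 1) for undifferentiated ES cells against adult tissue, where its J1 column departs from the scanner file. The same probe filter gave 1 (Six6 downstream) for differentiated against undifferentiated cells. Leaving out the 6 arrays that go against their labels gave 2 for the F test over tissues, in a fit with muscle 2 as the only muscle array. The slide as a random block, the log2 scale, at least 5 probes and the methods' t-test kept the calls of Six2 upstream and Six6 start against adult tissue and of Six2 upstream against embryos. With each array left out in turn the counts were 2 to 3 for differentiated ES cells against adult tissue (3 without the retinoic acid array, which added Six5 start), 1 to 1 against embryos and 0 to 0 elsewhere. Of the differences refitted for Six2 upstream and Six6 start (not those of teratoma, of embryos against adult tissue, or of Six6 start against embryos), 2 turned their sign, neither called in any fit: Six6 start in undifferentiated ES cells against adult tissue (0.16) was -0.0892 to 0.447 with each array left out (lowest without EB5, highest without J1), and in differentiated against undifferentiated cells (0.46) it was -0.49 with the slide as a fixed block.

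The replicate number of the adult arrays as a replicate block gave 0 member calls in the tissue comparisons, as without it. Same-numbered deviations correlated between tissues with r of -0.253 to 0.629 (28 pairs), so that the numbers were not taken to pair the arrays. Normexp on the mean signals was not run, since not every file holds them, and the medians took its place. That setting, the software version and random slide block, and the fits without the 6 arrays or, between groups, without single adult arrays were chosen after seeing the data.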
